A study of Mus musculus with 6 samples.

Results

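Enzymes that release or store neutral lipid in liver were followed at the RNA level in mice made chronically hyperlipidemic with poloxamer P-407. The genes are Lipc and Lipg (hepatic and endothelial lipase), Lipa (the lysosomal acid lipase), Pnpla2, Abhd5, Lipe, Mgll and Pnpla3 (proteins of lipid droplet breakdown), and Soat1 and Soat2 (the enzymes that esterify cholesterol). They were chosen by symbol, as known lipases and partners, with earlier results of these data known. Of these 10 genes, 7 were measured among 16871 genes on an oligonucleotide array, and 3 of the 7, Lipe, Mgll and Pnpla3, also among 5011 genes on a cDNA array. Each measured gene had 1 feature on an array type. Lipc, Soat1 and Soat2 matched no feature by symbol, synonym or gene ID and are not analysed here.

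Triglyceride is broken down at several places in the cell and outside it. Lipases secreted or held at the vessel wall cleave the lipids of circulating lipoproteins, the lysosomal acid lipase frees cholesterol and fatty acids from lipoproteins and droplets delivered to the lysosome, and a chain of cytosolic enzymes empties the lipid droplet. Poloxamer P-407 is known to block lipoprotein lipase, so that triglyceride-rich particles stay in the blood.

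Livers of 12 female C57BL/6 mice injected intraperitoneally with P-407, 0.5 g/kg at intervals of 3 days, were compared with livers of 4 mice injected with saline on the same schedule. All mice were 7 weeks old at the start, ate chow with 4.4% fat and gave their livers at day 96. The treated RNA was pooled into 3 samples, pools 1, 2 and 3, and the control RNA into 1 sample. Every array carried a treated pool in Cy5 and the control pool in Cy3, with no exchange of dyes, and each pool was read on 1 array of each type. The cDNA array took 10 ug of directly labelled RNA and the oligonucleotide array 0.5 ug of amplified RNA. Values are the authors' log ratios, read as log2 of treated over control because of their size, after each array was centred on its median. A natural log cannot be told apart from log2 by these files, and would make every fold larger. Ratios carry no levels, so they cannot show how much of any RNA the liver held, or that hepatocyte markers were present.

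Of the 16871 genes on the oligonucleotide array, limma called 7318 (43.4%) at an adjusted p under 0.05, 22.0% higher and 21.4% lower in the P-407 pools. The median absolute log2 ratio of the called genes was 0.26. On the cDNA array limma called 0 of 5011 genes (0.0%), with 1518 (30.3%) at an unadjusted p under 0.05, and a fit without the shared variance called 1. The median SD between pools was 0.077 on the oligonucleotide array and 0.317 on the cDNA array. A single control pool stands for all control mice, so the p-values measure only the spread between the arrays of the treated pools. In that spread, pool and array cannot be told apart. An effect of the dyes on a gene cannot be told apart from treatment.

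Among the 7 measured lipase genes, Lipa was higher in P-407 livers, Abhd5 was slightly lower, and 5 were not called. Calls were thus made for 2 of the 7 genes, against 43.4% of all genes. The median log2 ratio of the 7 was 0.045, against 0.0027 over all genes. Without pool 1 Abhd5 was not called, and without pool 2 it was not called while Pnpla3 was.

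**Figure D1:**
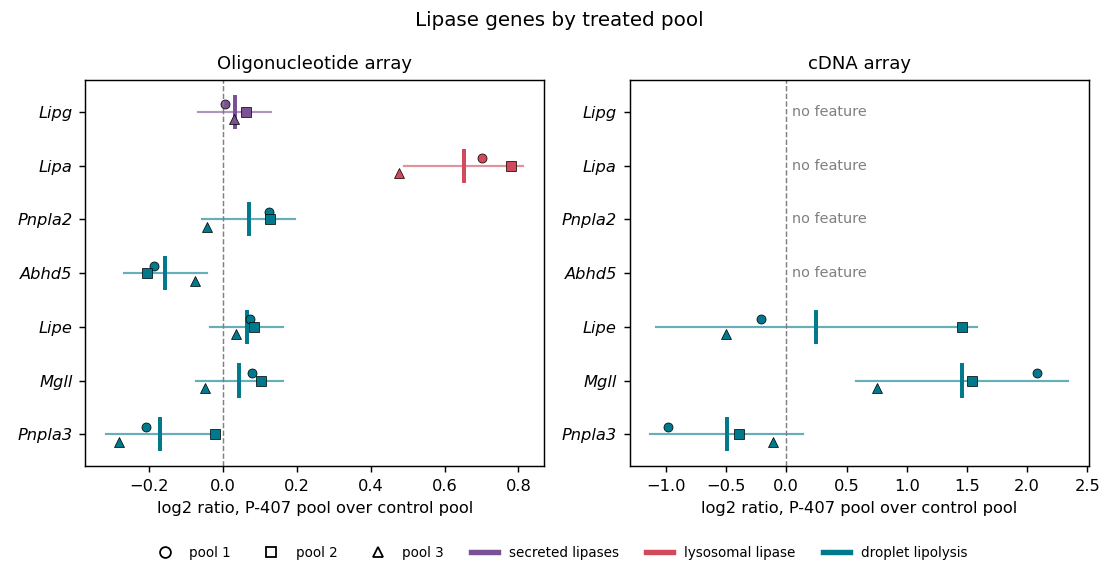
Log2 ratio of P-407 over control for each lipase gene by treated pool on the oligonucleotide array (left) and the cDNA array (right). Symbols are pools, the vertical tick is the mean and the line its 95% interval from limma. The horizontal scales differ. Lipa lies between 0.48 and 0.78 in the 3 pools, and no pool of another gene on the left exceeds 0.13.

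Lipa, whose enzyme hydrolyses cholesteryl esters and triglycerides inside the lysosome, showed the largest ratio of the 7 on the oligonucleotide array, the array type that measured it. Its log2 ratio was 0.70 in pool 1, 0.78 in pool 2 and 0.48 in pool 3. The lowest of these lay far above the highest value of any other of these genes in any pool of that array type, 0.13. The mean was 0.65 ± 0.16 (SD, n = 3 pools, 95% interval 0.49 to 0.81, limma adjusted p = 0.0014), a 1.57-fold higher level in the P-407 pools, or 1.92-fold if the deposited values are natural logs. It was also called against a minimum fold of 1.2 (limma adjusted p = 0.0165), as were 5.17% of all genes, and with any pool left out. A fit without the shared variance did not call it (adjusted p = 0.0943). Of all genes on that array, 2.61% lay farther from 0 than Lipa. Of 860 chemosensory receptor genes, whose known role is in smell and pheromone sensing, 6 (0.698%) lay at least as far. Of these receptor genes 309 (35.9%) were themselves called, with absolute ratios up to 2.08. In a liver sample, more cells that hold a transcript and more of it per cell cannot be told apart.

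**Figure D2:**
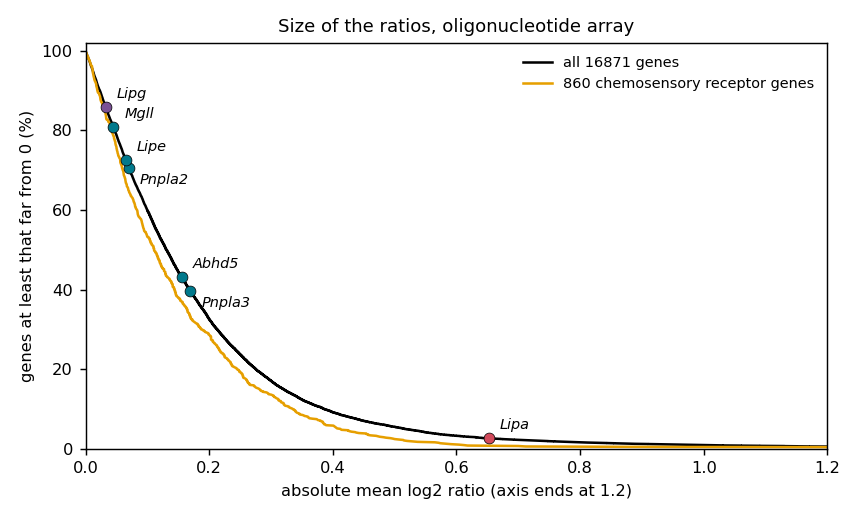
Percentage of genes on the oligonucleotide array whose absolute mean log2 ratio reaches the value on the horizontal axis, for all genes (black) and for chemosensory receptor genes (orange). Points mark the 7 lipase genes. Lipa sits in the tail, with 2.61% of genes farther from 0, while the others lie where 39.6% to 85.9% of genes are farther.

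Other lysosomal genes were higher in the same pools. Of 28 measured genes of a lysosome list, 14 were higher and 1 lower, where 22.0% and 21.4% of all genes were called in those directions, with a median log2 ratio of 0.15 against 0.0027. Without pool 1, 11 were higher and 2 lower, beside 1996 and 2029 of all 16871 genes. Against a fold of 1.2, 8 were higher and 0 lower, beside 508 and 364 of all genes. The cysteine protease gene Ctss had a ratio of 2.03, the protease genes Ctsb and Ctsd had 1.22 and 0.98, and Hexa, a subunit of the ganglioside-degrading hexosaminidase, had 0.99, each called with any pool left out. Lipa stood above most of the list, with 8, 6 and 8 of the 28 genes higher than it in pools 1, 2 and 3.

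Other genes of cholesterol handling and of the lysosome were singled out after their values were seen. Npc2, which takes cholesterol from the lysosomal lumen, was higher at 0.29 (limma adjusted p = 0.0105), though not without pool 1 (adjusted p = 0.0537). Npc1, the membrane protein that receives it, had -0.12 (adjusted p = 0.0607). Tfeb, a transcription factor of lysosomal genes, had 0.076 (adjusted p = 0.223), and Lamp2, a membrane protein needed for autophagy, was the lower gene at -0.28 (adjusted p = 0.0081). Nceh1, a neutral cholesteryl ester hydrolase outside the lysosome, had 0.16 (adjusted p = 0.0863), and was called without pool 3 at 0.24 (adjusted p = 0.0242).

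Lipa belongs to a family of acid lipases, most of which are used outside the liver. Lipk, of epidermis, was lower at -0.34, -0.38 and -0.17 in pools 1, 2 and 3 (mean -0.30, limma adjusted p = 0.0079). It was not called against a fold of 1.2, and 17.4% of all genes lay farther from 0. Lipf, gastric lipase, singled out with Lipm and Lipn after their values were seen, was lower at -0.14 (adjusted p = 0.0474), and not called with any pool left out (-0.16 to -0.10). Lipm had -0.094 and Lipn -0.083, neither called. Since Lipf, Lipm and Lipn were singled out with their values known, the shared negative sign is not read as a result for the family.

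Markers of macrophages, cells rich in lysosomes, were read beside Lipa. Of 11 measured, 10 were higher and 0 lower (22.0% and 21.4% over all genes), with list means of 2.24, 2.05 and 1.97 in pools 1, 2 and 3 and a median of 1.65. Cd68, a lysosomal glycoprotein, had 1.61, and the phagocyte genes Gpnmb and Trem2 had 4.63 and 4.31. Cd14, the marker not called, had -0.075. The Lipa ratio was lowest in pool 3, as was the macrophage list mean, while Lipa was highest in pool 2 and the list in pool 1. A low in pool 3 was not particular to them, since 5 of the 7 lipase genes had it. The secreted lipase, lysosome, adipocyte, endothelial, stellate and pancreas list means were also lowest in pool 3. The lipolysis, acyltransferase, Kupffer and hepatocyte list means were lowest in pool 2. The part of macrophages in the Lipa ratio was not tested.

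**Figure D3:**
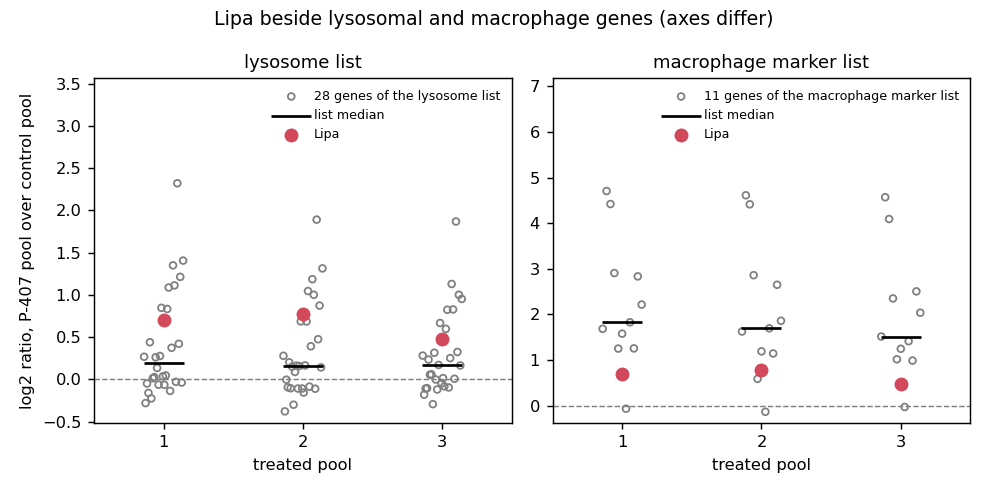
Log2 ratio of P-407 over control by treated pool for Lipa (red), for 28 lysosomal genes (left, grey) and for 11 macrophage markers (right, grey), on the oligonucleotide array. Black bars are list medians, and the vertical scales differ. Lipa lies above the lysosome median, 0.20, 0.16 and 0.17 in pools 1, 2 and 3, and below the macrophage median, 1.83, 1.70 and 1.52.

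The promoters of Lipa, Abhd5 and Pnpla3 are shown because these 3 genes had the ratios farthest from 0 on the oligonucleotide array. Each window runs from 250 bases before to 50 bases after the gene's start, 5′ to 3′ on the gene's strand, from RefSeq on build GRCm38.p6. The Lipa window is chr19:34527425-34527724 (minus strand), Abhd5 chr9:122351366-122351665 (plus) and Pnpla3 chr15:84167566-84167865 (plus). Capitals mark matches on either strand to GGGCGG (the GC box of Sp1) or CCAAT.
Lipa: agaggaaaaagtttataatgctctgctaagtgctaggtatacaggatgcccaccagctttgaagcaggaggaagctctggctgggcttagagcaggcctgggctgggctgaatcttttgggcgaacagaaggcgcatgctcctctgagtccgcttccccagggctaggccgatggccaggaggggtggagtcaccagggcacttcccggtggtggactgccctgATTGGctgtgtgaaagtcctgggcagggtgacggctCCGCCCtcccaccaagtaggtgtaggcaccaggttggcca
Abhd5: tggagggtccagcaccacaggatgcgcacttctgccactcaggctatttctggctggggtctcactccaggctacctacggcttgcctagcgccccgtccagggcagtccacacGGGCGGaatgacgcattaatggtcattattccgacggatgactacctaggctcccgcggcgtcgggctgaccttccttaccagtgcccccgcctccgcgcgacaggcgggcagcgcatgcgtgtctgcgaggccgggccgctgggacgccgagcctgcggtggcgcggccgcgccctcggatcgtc
Pnpla3: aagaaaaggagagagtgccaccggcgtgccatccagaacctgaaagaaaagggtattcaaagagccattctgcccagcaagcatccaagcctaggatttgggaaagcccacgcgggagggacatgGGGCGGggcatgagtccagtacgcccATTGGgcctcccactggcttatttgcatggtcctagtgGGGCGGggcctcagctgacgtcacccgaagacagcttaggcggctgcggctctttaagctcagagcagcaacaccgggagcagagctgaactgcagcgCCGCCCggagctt
GGGCGG was in all 3 windows, with 3 matches for Pnpla3 and 1 each for Lipa and Abhd5, and 35.7% of 32851 mouse promoter windows of that length hold it. CCAAT was in the Lipa and Pnpla3 windows and in 37.4% of all windows. Neither motif overlapped the other. Searches for the E-box CACGTG (7.15% of windows), the lysosomal CLEAR element (0.326%), which contains that E-box, and the sterol response element TCACNCCAC (1.24%) found no match in these 3 windows. CACGTG was present once each in a window of Lipe and of Mgll.

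Lipg, the endothelial lipase, cleaves phospholipids of high-density lipoprotein at the vessel wall. Its log2 ratio was 0.0049 in pool 1, 0.063 in pool 2 and 0.030 in pool 3, which is close to 0 in every pool. The mean was 0.032 ± 0.029 (SD, n = 3), limma adjusted p = 0.545, and the 95% interval of the fold was 0.955 to 1.10. Of all genes, 89.0% had a larger SD between pools. The related lipoprotein lipase gene Lpl, the enzyme that P-407 inhibits, had 1.80, 2.0 and 1.84 in the same pools (limma adjusted p = 7.32e-05). Among 19 genes of secreted lipases and their regulators, 3 were higher and 5 lower (22.0% and 21.4% over all genes), with a median of -0.072. Without pools 1, 2 or 3, 2, 2 and 3 were lower, where 2029, 2399 and 3064 of all genes were lower. Against a fold of 1.2 Lpl alone was called, beside 5.17% of all genes. Angptl8, a hepatic inhibitor of Lpl in other tissues, was higher at 0.46 (limma adjusted p = 0.0035). Angptl4, which inactivates Lpl, was lower at -0.41 (limma adjusted p = 0.0090).

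Pnpla2 (adipose triglyceride lipase, ATGL) takes the first fatty acid off droplet triglyceride. Its log2 ratio was 0.12 in pool 1, 0.13 in pool 2 and -0.044 in pool 3, so the pools fell on both sides of 0. The mean was 0.070 ± 0.099 (SD, n = 3), limma adjusted p = 0.309, with a 95% interval of the fold of 0.962 to 1.15.

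Abhd5 (CGI-58) encodes the coactivator that Pnpla2 needs for full activity. Its log2 ratio was -0.19 in pool 1, -0.20 in pool 2 and -0.075 in pool 3, negative in every pool. The mean was -0.16 ± 0.07 (SD, n = 3, 95% interval -0.27 to -0.044, limma adjusted p = 0.0371), a 1.11-fold lower level. This is a small ratio for this array. Of all genes 43.1% lay farther from 0, and 318 of 860 chemosensory receptor genes (37.0%) lay at least as far. It was not called without pool 1 (adjusted p = 0.182), without pool 2 (adjusted p = 0.140), against a fold of 1.2, or without the shared variance (adjusted p = 0.151). G0s2, which inhibits Pnpla2 and was singled out after its value was seen, was higher at 0.38 (limma adjusted p = 0.0126), but not without pool 2 (adjusted p = 0.0578).

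Of 29 measured genes of intracellular lipolysis and the droplet, 4 were higher and 9 lower (22.0% and 21.4% over all genes), with a median of -0.024. Without pool 1, 5 were lower, and without pool 2, 4, where 2029 and 2399 of all genes were lower. Against a fold of 1.2 none was called in either direction, beside 5.17% of all genes. Faah, which degrades fatty acid amides, was lower at -0.43 (limma adjusted p = 0.0015), and Pnpla6, a lysophospholipase related to Pnpla2, at -0.42 (adjusted p = 0.0020). Plin1, the perilipin that holds Abhd5 on adipocyte droplets, was lower at -0.34 (adjusted p = 0.0023), and Ces1d, a triglyceride hydrolase, at -0.29 (adjusted p = 0.0048).

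**Figure D4:**
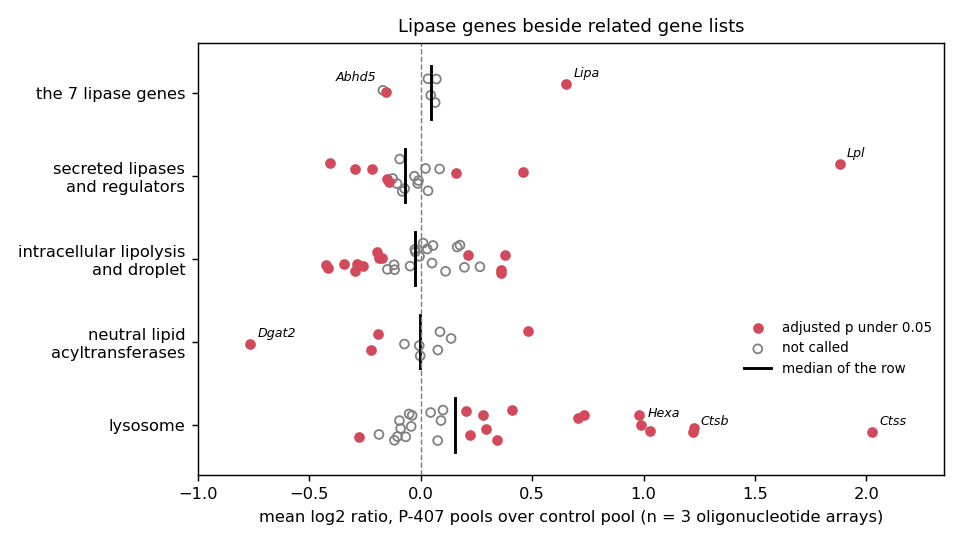
Mean log2 ratio of P-407 over control on the oligonucleotide array (n = 3 arrays) for the 7 lipase genes and for 4 lists of related genes. Filled points were called by limma at an adjusted p under 0.05, and black bars are row medians, which run from -0.072 for secreted lipases and regulators to 0.15 for lysosomal genes. Lpl at 1.88 and Ctss at 2.03 lie farthest right.

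Lipe (hormone-sensitive lipase) cleaves diglyceride and cholesteryl esters. On the oligonucleotide array its log2 ratio was 0.073 in pool 1, 0.085 in pool 2 and 0.036 in pool 3, close to 0 in each. The mean was 0.065 ± 0.025 (SD, n = 3), limma adjusted p = 0.236, with a 95% interval of the fold of 0.977 to 1.12. On the cDNA array it was -0.21 in pool 1, 1.46 in pool 2 and -0.50 in pool 3, so that pool 2 stood alone above 0. That mean was 0.25 ± 1.06, limma adjusted p = 0.723, and turned to -0.355 without pool 2. Only 10.7% of genes on the cDNA array had a larger SD.

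Mgll (monoglyceride lipase) removes the last fatty acid and also degrades the endocannabinoid 2-arachidonoylglycerol. Its values differed most between the array types. On the oligonucleotide array they were 0.080 in pool 1, 0.10 in pool 2 and -0.049 in pool 3 (mean 0.045 ± 0.082, limma adjusted p = 0.478). On the cDNA array they were 2.08, 1.54 and 0.75 (mean 1.46 ± 0.67, 95% interval 0.58 to 2.34), and the limma adjusted p was 0.107 with an unadjusted p = 0.0109. The lowest cDNA value lay above the highest oligonucleotide value. Ratios were wider in general on the cDNA array, with a median absolute log2 ratio of 0.40 against 0.13. Of all genes on the cDNA array, 5.61% lay farther from 0 than Mgll.

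The oligonucleotide minus cDNA difference for Mgll was -2.0, -1.44 and -0.80 in pools 1, 2 and 3. The mean was -1.41 in the fit without a block (95% interval -2.25 to -0.57, limma adjusted p = 0.0527). The difference fit called 11.4% of 4702 genes, and none with pool as a block, which gave adjusted p = 0.135 for Mgll. Without pool 3, and again without a block, the difference was -1.72 (adjusted p = 0.0289). With the arrays of each pool averaged, Mgll had 1.08, 0.82 and 0.35 (mean 0.75 ± 0.37, limma adjusted p = 0.0744, and 0.0498 at 0.95 without pool 3). That fit called 5.1% of genes. The annotation ties the oligonucleotide feature to the RefSeq mRNA and the cDNA feature to an expressed sequence tag. Whether both read the same transcript was not tested.

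Pnpla3 (adiponutrin) is a droplet protein of hepatocytes whose RNA falls with fasting and rises with lipogenic feeding. On the oligonucleotide array its log2 ratio was -0.21 in pool 1, -0.020 in pool 2 and -0.28 in pool 3. On the cDNA array it was -0.98, -0.39 and -0.11 in pools 1, 2 and 3. All 6 values were below 0, but the order of the pools differed, with pool 3 lowest on the oligonucleotide array and pool 1 on the cDNA array. The oligonucleotide mean was -0.17 ± 0.13 (95% interval -0.32 to -0.024, limma adjusted p = 0.0628) and the cDNA mean -0.49 ± 0.44 (95% interval -1.13 to 0.14, limma adjusted p = 0.214). Averaged over array types it was -0.33 ± 0.23 (limma adjusted p = 0.134), and the difference between types was 0.32 (95% interval -0.28 to 0.92, limma adjusted p = 0.370). Without pool 2 the oligonucleotide ratio of -0.24 was called (limma adjusted p = 0.0305).

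Soat1 and Soat2, which are not analysed here, were listed with other acyltransferases, some of which make triglyceride and some of which act on phospholipids or proteins. Of the 10 measured, 1 was higher and 3 lower (22.0% and 21.4% over all genes), with a median of -0.0045. Without pool 2, 2 were higher, beside 2536 of all genes. Against a fold of 1.2, 1 was higher and 1 lower, beside 508 and 364 of all genes. Dgat2, the main enzyme of hepatic triglyceride synthesis from new fatty acids, was lower at -0.81, -0.83 and -0.66 in pools 1, 2 and 3 (mean -0.77, limma adjusted p = 5.08e-04). Dgat1, in the same membrane-bound acyltransferase family as Soat1, was lower at -0.19 (limma adjusted p = 0.0388), but lost that call with any pool left out (-0.24 to -0.12). Lpcat3, which remodels phospholipids, was lower at -0.22 (adjusted p = 0.0093). Mboat2, a lysophospholipid acyltransferase, was higher at 0.48 (adjusted p = 8.64e-04).

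The pool with the lowest oligonucleotide ratio differed between the genes. Each pool was read on 1 oligonucleotide array, so a difference of pool cannot be told apart from one of array. Over all genes, the deviations of same-numbered arrays of both types correlated at only 0.0619 to 0.0745. Pool 3 had the lowest oligonucleotide ratio for Lipa, Pnpla2, Lipe, Mgll and Pnpla3, pool 1 for Lipg and pool 2 for Abhd5. Of the 7 genes, 5 had 1 sign in all 3 pools, and Pnpla2 and Mgll changed sign in pool 3. For 4 of the 7, Lipg, Lipe, Mgll and Pnpla2, the 95% interval lay within a fold of 1.2 in either direction on the oligonucleotide array. The shares of all genes with these traits were not computed, so neither count can be called particular to the lipase genes. On the cDNA array the Mgll interval, not adjusted for the number of genes, lay between 1.49-fold and 5.05-fold. Mgll was not called there (limma adjusted p = 0.107).

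Markers of other cells were read beside these genes on the oligonucleotide array, where 22.0% of all genes were called higher and 21.4% lower. Of all genes, 1996, 2536 and 3180 were higher without pools 1, 2 and 3, and 2029, 2399 and 3064 lower. Of 11 hepatocyte markers, 0 were higher and 7 lower (median -0.28), with Alb at -0.28, called only when pool 1 was left out, Ttr at 0.049, not called, and Apoa1 at -0.23, called except without pool 1 or against a fold of 1.2. Of 7 Kupffer cell markers, 3 were higher and 4 lower, with Clec4f at 0.33, Vsig4 at -0.17, which was not called without pool 1 or pool 2, and Marco at -1.24, which was -0.81 without pool 2. Adipocytes are rich in Lipe, Mgll and Pnpla2, and of 8 of their markers 2 were higher and 2 lower (1 lower without pool 1), with Adipoq at -0.11 and Retn at -0.060, neither called, and Lep at -0.23, called except without pool 1 or against a fold of 1.2. Singled out after their values were seen, the 2 higher were Fabp4, a fatty acid binding protein of adipocytes and macrophages, at 1.23 and Pparg, a transcription factor of both, at 0.30 (limma adjusted p = 5.08e-04 and 0.0028). Of 10 markers of sinusoidal endothelium, the kind of cell in which Lipg can be made, 0 were higher and 3 lower (0, 1 and 1 without pools 1, 2 and 3), with Stab2 at 0.021, Lyve1 at 0.16 and Pecam1 at -0.11, none called. Lyve1 and Pecam1 were called without pool 3. Of 8 stellate cell markers 6 were higher and 0 lower (4 without pool 2), with Pdgfrb at 0.56, Lrat at 0.52, which was not called without pool 1 or pool 2, and Des at 0.23, not called without pool 2 or pool 3. Of 8 markers of exocrine pancreas 1, Cela1 at 0.51, was higher and 0 lower, with Cela2a at 0.051 and Cpa1 at 0.11, neither called. Against a fold of 1.2, where 508 and 364 of all genes were higher and lower, Clec4f, Vsig4, Marco, Lrat, Des and Pparg were not called. Fabp4, Pdgfrb and Cela1 were still called. The Kupffer list then had 2 higher and 2 lower, hepatocyte 0 and 4, adipocyte 1 and 0. The stellate list had 2 and 0, endothelium 0 and 0, and pancreas 1 and 0. The part of these cell types in the ratios of the lipase genes was not tested.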

How the data were processed

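The deposited tables hold a log ratio per feature and array, taken here as log2 and read as treated over control from the titles and dyes. Per the labels' protocols RNA was pooled, split over both array types and hybridised against the control pool. The background correction, normalization, log base and centring were not given in the sources used here. Absolute values reached 6.30 on 1 array type and 6.34 on the other, implausibly far for log10 ratios. The median of the non-zero features was 0.0066, 0.0061 and 0.0093 on the oligonucleotide arrays and -0.07, -0.09 and -0.02 on the cDNA arrays, pools 1 to 3. Without intensities signal over background is unknown. Precision rests on 3 arrays of each type.

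Values of exactly 0 were taken as missing, arrays were centred on the median of the other features, and features naming 1 gene in the platform annotation, with values on all 3 arrays, were averaged by gene. Of 22575 oligonucleotide features 18658 named 1 gene, 30 several and 3887 none. Of 13482 cDNA features 7410 named 1, 438 several and 5634 none. The gene IDs of 18445 and 7332 features were found in RefSeq. The mean ratio was tested against 0 with limma 3.58.1 (lmFit, eBayes) in R 4.3.3, with Benjamini-Hochberg adjustment over all genes of the array type and a threshold of 0.05. All control RNA is thus 1 control sample. Genes on all 6 arrays were also tested on pool means, and for the difference between array types without a block. Arrays of a pool share their RNA by design, so the pools pair them. The deviations of same-numbered arrays correlated at 0.0619, 0.073 and 0.0745 across 4702 genes. The functions were tested on simulated data.

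The genes and the 11 lists (4 of pathways, 7 of markers, 164 entries, 1 unmatched) were chosen with earlier results of these data known. All 10 lipase and esterification genes are named. Named by rule from each pathway list are the 4 called genes with the smallest p, and from each marker list the first 3 measured. Npc1, Npc2, Tfeb, Lamp2, Nceh1, G0s2, Lipf, Lipm, Lipn, Cd14, Fabp4 and Pparg were named after their values were seen. Chemosensory receptors are genes named Olfr, Vmn1r, Vmn2r or Taar with a number. Alternatives were leaving out each pool, no centring, 0 as a value, a robust or no shared variance, quantile normalization, medians over features, genes with at least 2 values, a minimum fold of 1.2, and pool as a block. Python 3.11.15, pandas 2.3.3 and matplotlib 3.10.9 were used for tables and plots.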

Additional observations from a re-analysis of the deposited data

How the results depend on the processing

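For the single lipase genes, 149 alternative values were computed. Of these 138 kept their direction and their side of the threshold, 5 lost a call, 3 gained one and 3 turned sign. The 3 that turned were Lipe without pool 2, at -0.355 on the cDNA array, -0.15 over both types and 0.41 for the difference between types, and with a pool left out these ranged up to 0.625, up to 0.352 and down to -0.546. Among marker genes, Stab2 turned to -0.017 without pool 3 and was 0.045 without pool 2. The number of these genes called higher on the oligonucleotide array was 1, and 0 with no shared variance. The number called lower was 1, and 0 against a fold of 1.2 or with no shared variance, and 0 to 1 with a pool left out. On the cDNA array 0 were called under any alternative. Over both types 0 to 1 were called higher with a pool left out, and in the difference between types 0 to 1 lower.

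Of the genes in the 4 pathway lists (19, 29, 10 and 28 measured), 22 were higher and 18 lower, beside 22.0% and 21.4% of all genes. These became 10 and 1 against a fold of 1.2, where 508 and 364 of all 16871 genes were called. With a pool left out they became 17 to 23 and 9 to 15, beside 1996 to 3180 and 2029 to 3064 of all genes. Of all genes on the oligonucleotide array, 7318 were called, against 4025 without pool 1, 872 against a fold of 1.2 and 40 with no shared variance. Over both types 240 were called, against 373 without pool 3 and 0 without pool 1, without pool 2 or with 0 as a value. In the difference between types 537 were called, against 1077 without pool 3, 349 with 0 as a value, and 0 without pool 1, without pool 2 or with pool as a block. With all 3 pools, no lipase gene was called in that difference without the block, so the block had no such call to remove, and it added none. Without pool 3, Mgll was called in the fit without a block (-1.72, limma adjusted p = 0.0289). The block was not run with a pool left out. The Mgll difference stayed at -1.41 with the block (limma adjusted p = 0.135). The cause of these changes was not tested.

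All ratios rest on 1 control pool and 1 dye orientation, and every gene here on 1 feature an array type.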
